A study of Homo sapiens with 12 samples.

Results

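RNA-seq libraries of RCC4 cells were examined for 10 genes of the NF-kB response: the secreted factors IL6, LIF, IL1B, CXCL1, CXCL2, CXCL3 and CCL2, the adhesion receptor ICAM1, and the feedback inhibitors NFKBIA and TNFAIP3. They were taken by gene symbol and are 10 of 23710 genes in the count files. RCC4 is an established line of human clear cell renal carcinoma that lacks VHL, the factor that marks HIF for degradation, so every group shares that defect. Cells were collected 72 h after transfection with 40 pmol of siRNA and Lipofectamine RNAiMAX. Experiment 1 set siMESH1-CDS, an siRNA to the coding sequence of MESH1, against a non-targeting control (siNT). Experiment 2 set siMESH1-7002, an siRNA to the 3′UTR of MESH1, against its own siNT. Each group held 3 libraries that the labels call biological replicates, 12 in all. MESH1, which appears as HDDC3 in the files, is the human relative of the bacterial enzyme that degrades the stringent-response alarmone, and it acts as an NADPH phosphatase. All groups are transient transfections of a single cell line.

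NF-kB is a family of dimeric transcription factors that IkB proteins hold in the cytoplasm. Receptors for IL-1, TNF and microbial products activate the IKK kinases, which mark IkB for degradation, and the freed dimers then bind kappaB sites in promoters. Among the genes switched on are chemokines, adhesion molecules and cytokines, and also NFKBIA and TNFAIP3, whose products shut the response off again. Many of the cytokine mRNAs carry AU-rich elements in their 3′UTR and are degraded quickly. Renal carcinoma cells are known to make IL-6 and neutrophil-attracting chemokines.

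The target sites of the siRNAs are shown because each experiment used only 1 MESH1 siRNA. Capitals mark the site that pairs with the guide seed (guide bases 2 to 8).
siMESH1-CDS: gggaaucacugACAUUGUg
siMESH1-7002: ctgaaggtctcctGCTAACTa
The first site lies in exon 2 of HDDC3, in the coding sequence, at chr15:90932064-90932082 on the minus strand of GRCh38. The second lies in exon 4, in the 3′UTR, at chr15:90931109-90931129. The seed site of siMESH1-CDS did not occur in the 3′UTR of any of the 10 genes. That of siMESH1-7002 occurred 1 time in the 3′UTR of IL6 and 1 time in that of CCL2. Whether these sites bear on the levels of IL6 and CCL2 was not tested.

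The kappaB matches next to the start sites are shown because 6 of the 8 promoters searched held one. Promoters came from RefSeq (GRCh38.p14, 250 bases before to 50 after the start), and 8 of the 10 genes had an entry. The kappaB consensus GGGRNWYYCC (R is A or G, W is A or T, Y is C or T, N is any base) was searched on both strands and is in capitals.
IL6: tcaaatgtGGGATTTTCCcatgagtc
CXCL1: ggaactccGGGAATTTCCctggcccg
CXCL2: ggagctccGGGAATTTCCctggcccg
CXCL3: ggagctccGGGAATTTCCctggcccg
NFKBIA: actggcttGGAAATTCCCcgagcctg
TNFAIP3: gtgactttGGAAAGTCCCgtggaaat
TNFAIP3: agtcccgtGGAAATCCCCgggcctac
The match began 73 bases before the start in IL6 (chr7:22727119-22727144, plus strand). It began 79, 78 and 79 bases before it in CXCL1 (chr4:73869306-73869331, plus strand), CXCL2 (chr4:74099256-74099281, minus strand) and CXCL3 (chr4:74038751-74038776, minus strand). The shown windows of CXCL2 and CXCL3 were identical. In these 3 chemokines a second match on the opposite strand overlapped the shown one with a shift of 1 base. In NFKBIA (chr14:35404813-35404838, minus strand) the match was on the opposite strand, and TNFAIP3 held 2 such matches (chr6:137867184-137867209 and chr6:137867196-137867221, plus strand). In all, 6 of 8 promoters held the consensus, against 5.91% of 35116 promoters. The genes were chosen as genes of the NF-kB response, so a high share follows from that choice and carries no weight. IL1B and ICAM1 held no match to this consensus in this window, and LIF and CCL2 had no entry. Sites that depart from the consensus were not searched. The AP-1 motif TGANTCA occurred in 0 of 8 and in 7.71% of all.

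The libraries held 34063155 to 49134129 reads in genes in experiment 1 and 24787804 to 31651125 in experiment 2. HDDC3, the targeted gene, fell in both: from 7.48 ± 0.913 (SD, n = 3) to 0.158 ± 0.158 CPM (reads scaled to library size) with siMESH1-CDS and from 13.2 ± 0.630 to 1.38 ± 0.291 CPM with siMESH1-7002. With siMESH1-CDS, HDDC3 held 5, 0 and 11 reads, so the size of that fall rests on counts near 0. All 7 renal markers reached 1 CPM in every group. CD3E, a T cell marker, was at 0 in all libraries. The summed level of the 7 leukocyte markers was 2.72 to 4.11 CPM in siNT of experiment 1 and 0.277 to 0.709 CPM in the other groups; its part in the results was not tested. The 3 fibroblast markers, 1 of which reached 1 CPM, summed to 19.5 to 22.4 CPM with siNT and 3.88 to 4.14 CPM with siMESH1-CDS in experiment 1, and to 10.5 to 13.4 and 25.8 to 29.6 CPM in experiment 2; their part was not tested either. The siMESH1-CDS libraries stood apart from each other, with a chi-square per degree of freedom of 68.9 to 291 between pairs, against 2.29 to 15.8 for pairs of the other groups. In experiment 1 the change also followed base composition: the median log2 fold change was 1.10 in the GC-poorest of 10 equal classes of genes and -3.67 in the GC-richest, against 0.14 and -0.09 in experiment 2. Reads outside annotated genes were 18.4% to 20.8% of reads with siMESH1-CDS and 14.7% to 15.5% with its siNT.

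The 2 MESH1 siRNAs gave different patterns. With siMESH1-CDS, edgeR called 4 of the 9 genes tested (adjusted p under 0.05): TNFAIP3 and CXCL3 were higher, and LIF and CCL2 were lower. In that comparison 74.1% of all 13395 genes tested were called (36.9% higher, 37.2% lower). With siMESH1-7002, 7 of 10 were called: IL1B, CXCL1, CXCL2 and CXCL3 were higher, and CCL2, LIF and NFKBIA were lower. The background there was 53.3% of 13568 genes (26.6% higher, 26.7% lower). The median log2 fold change of the genes was -0.12 with siMESH1-CDS and 0.11 with siMESH1-7002, beside -0.05 and 0.01 for all genes tested. CXCL3 entered the test of experiment 2 only through the siMESH1-7002 libraries, in which it was high, so its call there carries no weight in this count; 6 of the other 9 genes were called. CCL2 and LIF were lowered by either siRNA, LIF by different amounts. The CPM ranges of treated and control libraries did not overlap for 5 of 9 genes in experiment 1 and 7 of 10 in experiment 2, where 82.7% and 59.5% of all genes did not overlap. With 3 libraries against 3, the exact two-sided permutation test cannot go below p = 0.1.

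**Figure D1:**
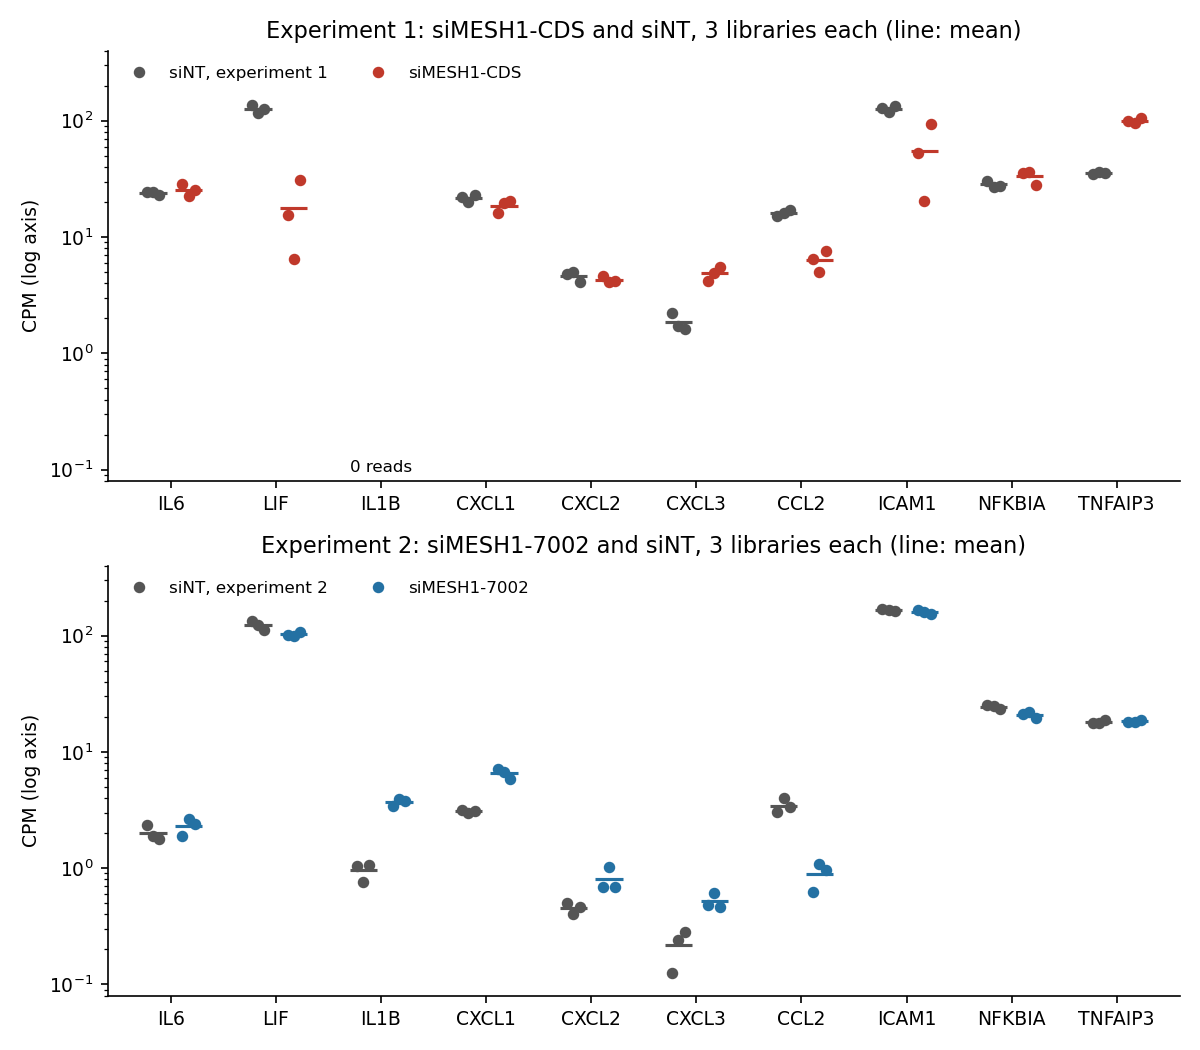
CPM of the 10 genes in each library on a log axis, for experiment 1 (top) and experiment 2 (bottom); points are libraries and lines are group means. IL1B had 0 reads in all 6 libraries of experiment 1. TNFAIP3 separated from its controls with siMESH1-CDS only in the upper panel (95.2 to 105 CPM against 34.8 to 36.2), whereas the 3 siMESH1-CDS libraries of LIF and ICAM1 spread widely.

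IL6 encodes the cytokine that drives the acute-phase response through gp130 and STAT3 (chr7:22725884-22732002 in GRCh38). In experiment 1 the siNT libraries held 24.2, 24.3 and 23.2 CPM and the siMESH1-CDS libraries 28.3, 22.6 and 25.5 CPM. Those of experiment 2 were 2.36, 1.89 and 1.77 CPM with siNT and 1.87, 2.63 and 2.41 CPM with siMESH1-7002. The groups overlapped in both experiments. The log2 fold change was 0.09 (SE 0.135, edgeR adjusted p = 0.552) with siMESH1-CDS, with a 95% interval of -0.17 to 0.36, and 0.19 (SE 0.176, edgeR adjusted p = 0.384) with siMESH1-7002, with an interval of -0.16 to 0.54.

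LIF encodes leukemia inhibitory factor, a cytokine of the IL-6 family (chr22:30240447-30246851). The siNT libraries of experiment 1 held 137, 116 and 125 CPM and the siMESH1-CDS libraries 15.6, 6.42 and 30.8 CPM. All 3 siMESH1-CDS libraries were below all controls, but they differed among themselves more than the controls did. LIF fell 7.16-fold, by 2.84 on the log2 scale (SE 0.553, edgeR adjusted p = 0.00477). The log2 fold change ran from -3.54 to -2.42 when single libraries were left out, and it was -3.54 (11.6-fold lower) without replicate 3 of siMESH1-CDS. In experiment 2 it went from 133, 124 and 113 CPM to 101, 99.4 and 108 CPM, again with all treated libraries below the controls. That fall was 1.20-fold (log2 fold change -0.26, SE 0.0587, edgeR adjusted p = 0.00118), and it did not pass in a model of all 4 groups (edgeR adjusted p = 0.762). The 2 changes differed by -2.73 on the log2 scale (SE 0.572, edgeR adjusted p = 0.00179). This and the other differences come from a fit that scaled all 12 libraries together. They are therefore not the exact differences of the changes printed for each experiment. LIF belongs to the GC class whose median change with siMESH1-CDS was -1.63.

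IL1B encodes interleukin-1 beta, which itself activates NF-kB (chr2:112829751-112836903). It had 0 reads in all 6 libraries of experiment 1, which allows a level of up to 0.0611 to 0.0881 CPM per library (3 reads; counting error only), and it was not tested there. The siNT libraries of experiment 2 held 33, 19 and 30 reads and the siMESH1-7002 libraries 99, 116 and 115 reads. In CPM these were 1.04, 0.764 and 1.06 against 3.43, 3.92 and 3.8, with no overlap. IL1B rose 3.89-fold (log2 fold change 1.94, SE 0.169, edgeR adjusted p = 5.92e-08).

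CXCL1, CXCL2 and CXCL3 are neighbouring chemokine genes on chromosome 4 (73869393-73871242, 74097035-74099293 and 74036589-74038807) whose products attract neutrophils through CXCR2. They are near copies of each other: 5.73%, 9.24% and 5.26% of their 50-base windows occur unchanged in another of the 3, so reads from those stretches cannot be assigned to 1 gene. The other 7 genes shared no such window.

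CXCL1 held 22.2, 20.1 and 23.1 CPM in siNT of experiment 1 and 16, 19.5 and 20.3 CPM with siMESH1-CDS. The groups overlapped, and the log2 fold change was -0.23 (SE 0.154, edgeR adjusted p = 0.214). CXCL1 was called lower there in 5 of 16 alternative fits. These were library size (-0.50, edgeR adjusted p = 0.0262), at least 10 counts in every library (-0.42, edgeR adjusted p = 0.0409), a model of all 4 groups (-0.39, edgeR adjusted p = 0.00830) and both GC corrections given below. In experiment 2 it went from 3.15, 2.97 and 3.12 CPM to 7.14, 6.72 and 5.88 CPM. CXCL1 rose 2.13-fold there (log2 fold change 1.09, SE 0.118, edgeR adjusted p = 8.53e-07), and every siMESH1-7002 library was above every control. The changes differed by -1.47 (SE 0.168, edgeR adjusted p = 4.01e-05).

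CXCL2 held 4.85, 5.03 and 4.10 CPM in siNT of experiment 1 and 4.62, 4.08 and 4.20 CPM with siMESH1-CDS, which overlapped. The change of -0.12 on the log2 scale did not pass (SE 0.180, edgeR adjusted p = 0.577). In experiment 2 it was near the limit of the depth, with 16, 10 and 13 reads in siNT and 20, 30 and 21 reads with siMESH1-7002. It was 1.76-fold higher (log2 fold change 0.79, SE 0.284, edgeR adjusted p = 0.0261). This call did not pass with DESeq2 (adjusted p = 0.113), without replicate 2 of siNT (edgeR adjusted p = 0.0823) or without replicate 2 of siMESH1-7002 (edgeR adjusted p = 0.149). The 2 changes of CXCL2 differed by -1.06 (SE 0.256, edgeR adjusted p = 0.00393).

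In experiment 1 the controls of CXCL3 held 2.22, 1.70 and 1.61 CPM and the siMESH1-CDS libraries 4.21, 4.89 and 5.49 CPM. In experiment 2 it had 4, 6 and 8 reads in siNT and 14, 18 and 14 reads with siMESH1-7002, and it passed the filter on low counts only through the siMESH1-7002 libraries. Neither pair of groups overlapped. The rise was 2.64-fold with siMESH1-CDS (log2 fold change 1.40, SE 0.222, edgeR adjusted p = 0.00226) and 2.39-fold with siMESH1-7002 (log2 fold change 1.27, SE 0.379, edgeR adjusted p = 0.00960). The second call did not pass with DESeq2 (adjusted p = 0.0573) or without replicate 1 of siNT (edgeR adjusted p = 0.0601). In the fit of all 12 libraries the difference between the changes was -0.02 (SE 0.256, edgeR adjusted p = 0.942). With its separate scaling, its sign is not that of 1.40 less 1.27.

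CCL2 encodes the chemokine that attracts monocytes through CCR2 (chr17:34255218-34257203). It fell with each siRNA. The siNT libraries of experiment 1 held 15.3, 16.1 and 17 CPM and the siMESH1-CDS libraries 6.42, 5.05 and 7.62 CPM, a log2 fold change of -1.34 (SE 0.206, edgeR adjusted p = 0.00197). In experiment 2 the level went from 3.06, 3.98 and 3.33 CPM to 0.624, 1.08 and 0.957 CPM, a log2 fold change of -1.94 (SE 0.197, edgeR adjusted p = 3.63e-07). All siMESH1 libraries were below all controls in both experiments. The difference between the changes did not pass (0.46, SE 0.286, edgeR adjusted p = 0.175).

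ICAM1 encodes the surface receptor to which leukocyte integrins bind (chr19:10270835-10286615). In experiment 1 the controls held 129, 119 and 134 CPM and the siMESH1-CDS libraries 52.3, 20.5 and 92.9 CPM. The groups did not overlap, but the 3 siMESH1-CDS libraries spread over more than the distance from the highest of them to the controls. The log2 fold change of -1.20 (SE 0.504) did not pass (edgeR adjusted p = 0.0701). It passed without replicate 2 of siMESH1-CDS (-0.79, edgeR adjusted p = 0.0249), without replicate 3 (-1.82, edgeR adjusted p = 0.00596) and with DESeq2 (-1.26, adjusted p = 0.0166). Those of experiment 2 were 168, 166 and 163 CPM against 167, 160 and 154 CPM, a log2 fold change of -0.05 (SE 0.0458, edgeR adjusted p = 0.369).

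NFKBIA encodes IkB-alpha, which binds NF-kB dimers and takes them out of the nucleus (chr14:35401511-35404749). In experiment 1 it held 30.6, 26.9 and 27.6 CPM with siNT and 35.7, 36.0 and 27.8 CPM with siMESH1-CDS. The groups overlapped, and the log2 fold change was 0.23 (SE 0.149, edgeR adjusted p = 0.207); scaled by library size alone it was -0.04. In experiment 2 it fell from 25.1, 24.6 and 23.6 CPM to 21.2, 21.9 and 19.6 CPM (log2 fold change -0.23, SE 0.0682, edgeR adjusted p = 0.00984), with no overlap. That call did not pass without replicate 3 of siMESH1-7002 (edgeR adjusted p = 0.0679) or in a model of all 4 groups (edgeR adjusted p = 0.184).

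TNFAIP3 encodes A20, a ubiquitin-editing enzyme that stops signalling to IKK (chr6:137867188-137883312). In experiment 1 it rose from 34.8, 36.2 and 35.9 CPM to 100.3, 95.2 and 105 CPM, with little spread in either group. The rise was 2.81-fold (log2 fold change 1.49, SE 0.0895, edgeR adjusted p = 2.24e-04). In experiment 2 the controls held 17.9, 17.6 and 18.8 CPM and the siMESH1-7002 libraries 18.1, 18.2 and 18.9 CPM. The log2 fold change there was 0.03 (SE 0.0684, edgeR adjusted p = 0.761) with a 95% interval of -0.11 to 0.16. The changes differed by 1.31 (SE 0.105, edgeR adjusted p = 4.59e-06). The difference of NFKBIA did not pass this test (0.30, SE 0.153, edgeR adjusted p = 0.102). It passed with DESeq2 (0.43, adjusted p = 0.0287), with a centred and an uncentred correction for GC content (0.68 and 1.53, edgeR adjusted p = 0.0222 and 0.00391) and without replicate 3 of siMESH1-CDS (0.48, edgeR adjusted p = 0.00203).

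**Figure D2:**
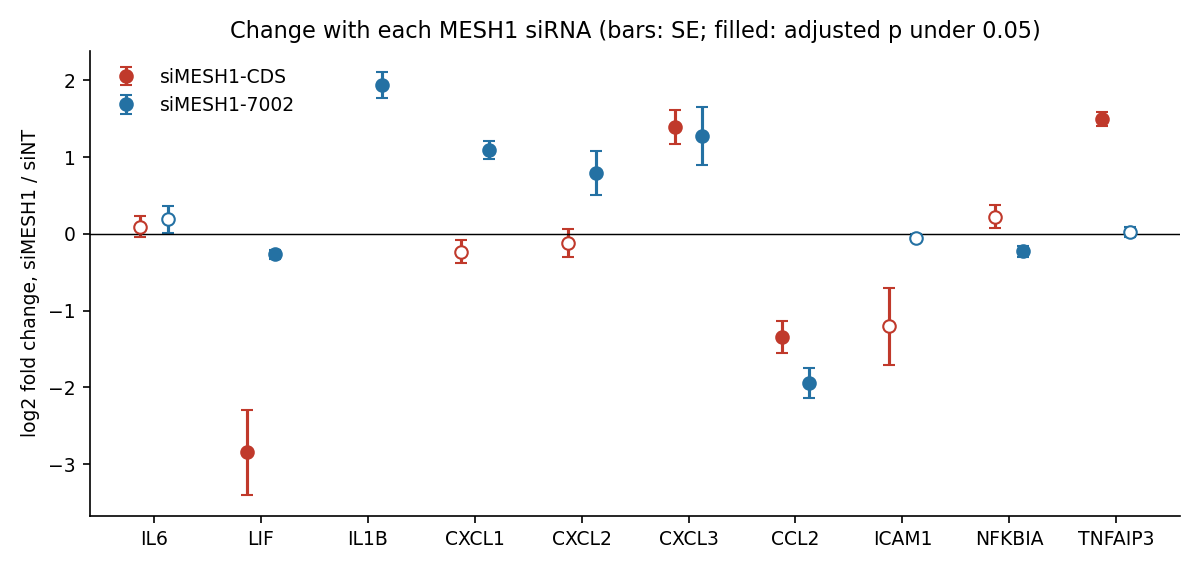
Log2 fold change of siMESH1 over siNT for each gene with siMESH1-CDS and siMESH1-7002. Bars are SE derived from the edgeR test statistic, and filled points have an adjusted p under 0.05. CCL2 (-1.34 and -1.94) was on the same side of 0 with each siRNA, and TNFAIP3 (1.49 and 0.03) was not called with siMESH1-7002. CXCL3 (1.40 and 1.27) entered the test of experiment 2 only through the siMESH1-7002 libraries, so its second value carries no weight.

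The difference between the 2 changes was thus called for 4 of the 9 genes with a test in each experiment (LIF, CXCL1, CXCL2 and TNFAIP3), beside 69.7% of all 14154 genes. That of ICAM1 did not pass (-1.30, edgeR adjusted p = 0.0529). It passed with DESeq2 (adjusted p = 0.0432), a replicate block (edgeR adjusted p = 0.0308) and without replicate 2 or 3 of siMESH1-CDS (edgeR adjusted p = 0.00472 and 7.06e-04). With the uncentred GC correction it reversed (0.69, edgeR adjusted p = 6.09e-04). That of IL6 passed only with the GC corrections (edgeR adjusted p = 0.00438 and 0.0423). The siRNA and the experiment changed together, so they cannot be told apart. In lanes 4 and 6 of experiment 1, which each held 1 siNT and 1 siMESH1-CDS library, TNFAIP3 was higher with siMESH1-CDS by 1.59 and 1.48 on the log2 scale. LIF was lower there, with differences of -2.15 and -3.0. CCL2 differed by -1.0 and -1.40, CXCL3 by 1.30 and 1.37, and ICAM1 by -0.47 and -1.35. Experiment 2 was run in a single lane.

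Since the change in experiment 1 followed GC content, the fit was repeated with a GC offset for each gene and library, in 2 forms. The offset was either centred within each library or not; the uncentred form was added after the centred one had been seen to move the median change of all genes to -0.51. With the uncentred form that median was 0.17. TNFAIP3 rose with both (1.09, edgeR adjusted p = 5.18e-04, and 1.79, edgeR adjusted p = 2.64e-05). CCL2 fell with both (-2.63, edgeR adjusted p = 0.00126, and -2.01, edgeR adjusted p = 8.81e-04), and so did LIF (-1.59, edgeR adjusted p = 0.00191, and -0.94, edgeR adjusted p = 9.88e-04). CXCL1 became lower with both (-1.15, edgeR adjusted p = 0.00414, and -0.48, edgeR adjusted p = 0.0175), and NFKBIA higher with both (0.63, edgeR adjusted p = 0.0372, and 1.39, edgeR adjusted p = 0.0103).

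The other 4 genes depended on the form of the offset. CXCL3 was not called with the centred one (0.38, edgeR adjusted p = 0.292) and was called with the uncentred one (1.04, edgeR adjusted p = 0.00455). IL6 was lower with the centred one (-0.96, edgeR adjusted p = 0.0116) and not called with the other (-0.29, edgeR adjusted p = 0.0759). CXCL2 behaved like IL6 (-1.0, edgeR adjusted p = 0.00751, and -0.31, edgeR adjusted p = 0.0936). ICAM1 was not called with the centred offset (0.05, edgeR adjusted p = 0.866) and was higher with the uncentred one (0.70, edgeR adjusted p = 0.00211), against the direction of its CPM. With each form 7 of the 9 genes were called, beside 59.3% of all genes with the centred one (14.1% higher, 45.2% lower) and 68% with the uncentred one (41% higher, 27.1% lower). The centred offset changed no call among the 10 genes in experiment 2, where it called 61.5% of all genes. With the uncentred one NFKBIA was no longer called (-0.12, edgeR adjusted p = 0.0743) and ICAM1 was (0.082, edgeR adjusted p = 0.0481), beside 63.7% of all genes.

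**Figure D3:**
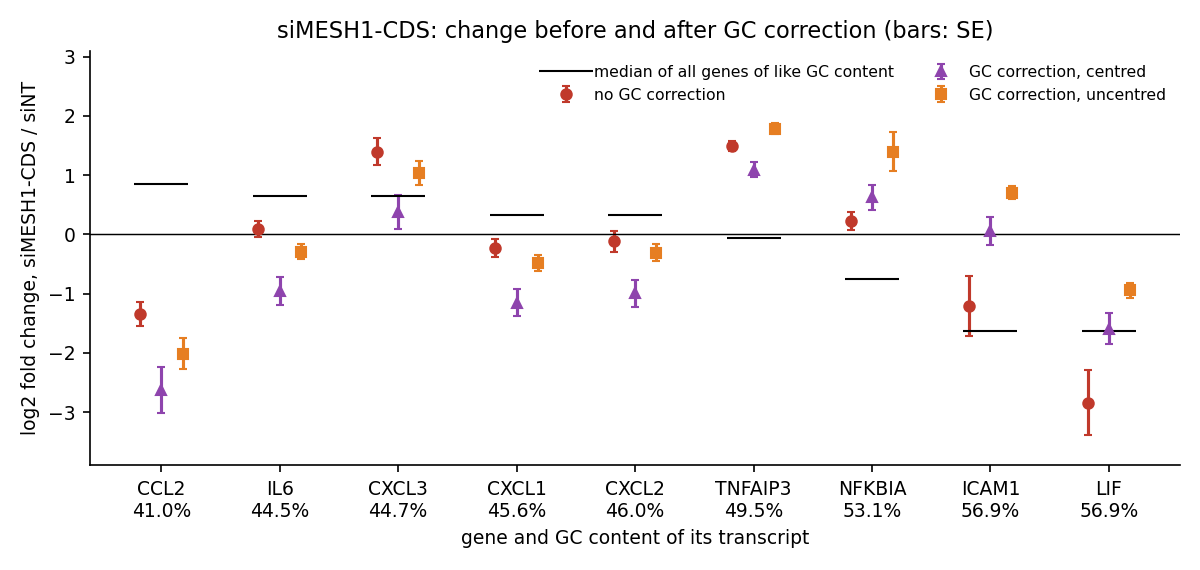
Log2 fold change with siMESH1-CDS for the 9 genes tested, in order of transcript GC content (41.0% to 56.9%), without GC correction and with the centred and uncentred offset; bars are SE and black dashes give the median change of all genes in the same class of GC content. TNFAIP3 stayed above 0 and CCL2 and LIF stayed below 0 in all 3 fits, while ICAM1 moved from -1.20 to 0.05 and 0.70.

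The siNT libraries of the 2 experiments also differed in many of these genes. On a common scale over all 12 libraries, siNT of experiment 1 held 25.9 CPM of IL6 and siNT of experiment 2 held 1.962 CPM, a ratio of 13.2. The ratio was 11.3 for CXCL2, 9.43 for CXCL3, 7.87 for CXCL1 and 5.18 for CCL2. For TNFAIP3 it was 2.19 and for NFKBIA 1.29. LIF was close, at 137 and 120 CPM with overlapping groups, and ICAM1 was higher in experiment 2 (138 and 162 CPM). IL1B went the other way, with 0 reads in experiment 1 and 0.934 CPM in experiment 2. These ratios have no test, since experiment, lane and read composition cannot be told apart. Transcript GC content was 41.0% to 46.0% for IL6, CXCL1, CXCL2, CXCL3 and CCL2. It was 49.5% for TNFAIP3, 53.1% for NFKBIA, 56.9% for LIF and ICAM1, and 45.7% for IL1B. Reads without a unique alignment were 10.5% to 12.6% in siNT of experiment 1 and 23.6% to 26.4% in that of experiment 2. Reads of low alignment quality were 6.60% to 6.80% and 0%. The part of these in the ratios was not tested.

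**Figure D4:**
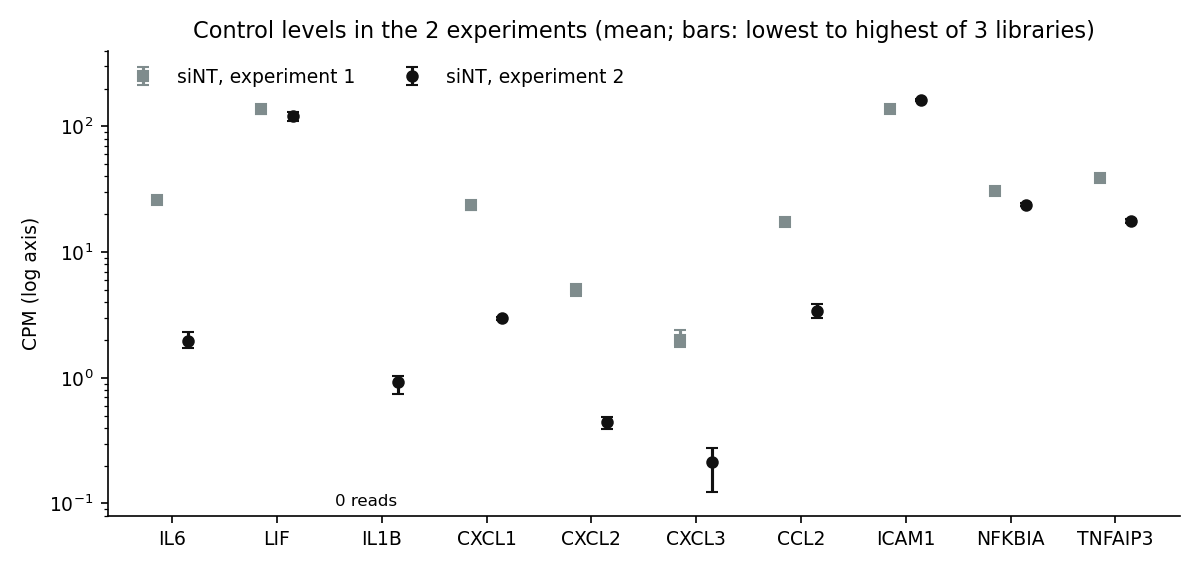
CPM of the 10 genes in the siNT libraries of each experiment, scaled over all 12 libraries and drawn on a log axis; symbols are means and bars run from the lowest to the highest of 3 libraries. IL6, CXCL1, CXCL2, CXCL3 and CCL2 were 5.18 to 13.2 times higher in experiment 1, while LIF, ICAM1 and NFKBIA lay close together.

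Per kilobase of transcript, ICAM1 was the most abundant of the 10 in siNT of both experiments, at 39.1 ± 2.23 and 51.0 ± 0.770 CPM per kb (SD, n = 3). LIF came next at 31.8 ± 2.66 and 31.0 ± 2.49 CPM per kb. In experiment 1 CCL2 (21.8), CXCL1 (19.9) and NFKBIA (18.2 CPM per kb) followed, and neighbours in this order overlapped. IL6 stood at 15.6, TNFAIP3 at 7.52, CXCL2 at 3.82 and CXCL3 at 1.72 CPM per kb, each apart from the next. With siMESH1-CDS the order changed: NFKBIA (21.3), TNFAIP3 (21.2), ICAM1 (17), CXCL1 (17) and IL6 (16.7 CPM per kb) came first, with neighbours that overlapped, and LIF dropped to 4.44 ± 3.1 CPM per kb. With siMESH1-7002 the first 3 places stayed with ICAM1 (49.2), LIF (25.9) and NFKBIA (13.4 CPM per kb), and CXCL1 (6.00) moved past TNFAIP3 (3.89 CPM per kb).

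The AU-rich pentamer ATTTA occurred in the 3′UTR of all 10 genes, from 1 time in CCL2 and 2 times in ICAM1 to 7 times in LIF and CXCL3 and 10 times in CXCL2. IL6 and IL1B held 6 each, CXCL1 and TNFAIP3 held 5 each and NFKBIA held 3.

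The rest of the pathway was followed in 7 lists, 120 genes in all, and shown in the plot of list counts. The counts stand beside 74.1% of all genes called with siMESH1-CDS (36.9% higher, 37.2% lower) and 53.3% with siMESH1-7002 (26.6% higher, 26.7% lower). No set test was run. Of the 5 NF-kB subunits, 1 was higher and 2 were lower with siMESH1-CDS (median log2 fold change -1.59), and 1 was higher and 4 were lower with siMESH1-7002 (median -0.31). REL, the subunit c-Rel, rose with each siRNA, from 3.86 ± 0.483 to 8.33 ± 2.03 CPM (SD, n = 3) with siMESH1-CDS and from 3.88 ± 0.574 to 5.46 ± 0.481 CPM with siMESH1-7002. RELB, the partner of p52 in the noncanonical pathway, fell from 12.4 ± 0.282 to 1.5 ± 1.67 CPM and from 22.1 ± 1.68 to 16.2 ± 0.366 CPM. In experiment 1 RELB passed the filter on low counts only through the siNT libraries, so that call carries no weight in the count. The RELB call in experiment 1 did not pass when any of 4 libraries was left out (each siNT library, or replicate 1 of siMESH1-CDS; edgeR adjusted p from 0.0805 to 0.112). NFKB1, which encodes p50, fell from 53.6 ± 0.899 to 38.1 ± 0.553 CPM with siMESH1-7002. It held 57.8 ± 1.81 and 76.4 ± 15.3 CPM in experiment 1 (edgeR adjusted p = 0.0593). It was called higher there in 3 of 16 alternative fits. These include a lane term (0.50, edgeR adjusted p = 0.0369) and the uncentred GC offset (0.78, edgeR adjusted p = 9.30e-05).

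Of 25 kinases and adaptors that lead to IKK, 8 were higher and 13 lower with siMESH1-CDS, beside 74.1% of all genes called. With siMESH1-7002, 7 were higher and 13 lower, beside 53.3%. SHARPIN, a subunit of the linear ubiquitin ligase, went from 656, 455 and 572 reads to 1, 2 and 8 reads with siMESH1-CDS. TRAF2, an adaptor of TNF receptors, went from 665, 420 and 510 reads to 3, 2 and 12 reads. SHARPIN and TRAF2 passed the filter on low counts there only through the siNT libraries, so these calls carry no weight in the count. In experiment 2 the same 2 genes fell by 0.20 (SE 0.0591) and 0.62 (SE 0.0693) on the log2 scale. TAB2, which brings TAK1 to ubiquitin chains, rose from 294 ± 0.689 to 854 ± 116 CPM with siMESH1-CDS and fell from 154 ± 11.1 to 124 ± 1.36 CPM with siMESH1-7002. IRAK2, a kinase of the IL-1 receptor complex, rose from 6.07 ± 0.417 to 9.91 ± 0.163 CPM with siMESH1-7002.

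Of 18 other feedback genes tested, 6 were higher and 9 lower with siMESH1-CDS, beside 74.1% of all genes called. With siMESH1-7002, 8 were higher and 6 lower, beside 53.3%. TAX1BP1, a partner of A20, rose from 132 ± 0.656 to 512 ± 103 CPM and from 112 ± 8.15 to 129 ± 1.33 CPM. BCL3, a nuclear IkB protein, fell from 8.67 ± 0.839 to 0.637 ± 0.797 CPM with siMESH1-CDS. It passed the filter on low counts there only through the siNT libraries, so this call carries no weight in the count. ZC3H12A, the RNase Regnase-1 that degrades IL6 mRNA, fell from 14 ± 1.77 to 2.54 ± 1.16 CPM with siMESH1-CDS and rose from 13.7 ± 2.13 to 17.5 ± 0.210 CPM with siMESH1-7002. TRAF1 fell from 23.9 ± 0.600 to 13.7 ± 5.25 CPM and from 6.38 ± 0.639 to 3.30 ± 0.306 CPM; its call in experiment 1 did not pass without any 1 of 5 libraries (each siNT library, and replicates 1 and 2 of siMESH1-CDS; edgeR adjusted p from 0.0523 to 0.129).

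Of the receptors and signal transducers, 5 of 15 were higher and 5 lower with siMESH1-CDS, beside 74.1% of all genes called. With siMESH1-7002, 5 of 14 were higher and 4 lower, beside 53.3%. LIFR, the receptor for LIF, rose from 24.4 ± 2.13 to 95.2 ± 19.6 CPM with siMESH1-CDS, where LIF itself fell. IL1RAP, the co-receptor through which IL-1 signals, rose from 11.3 ± 0.642 to 46.2 ± 1.92 CPM with siMESH1-7002, a rise of 2.03 on the log2 scale (SE 0.0694, edgeR adjusted p = 5.27e-13). It held 32.9 ± 2.58 and 30.1 ± 4.16 CPM in experiment 1 and was not called; it was called lower there with the centred and uncentred GC offset (-1.48 and -0.80, edgeR adjusted p = 7.19e-04 and 7.95e-04), by library size (edgeR adjusted p = 0.0240) and in a model of all 4 groups (edgeR adjusted p = 0.0318). IL1R2, the decoy receptor for IL-1, fell from 8.35 ± 0.675 to 5.81 ± 0.508 CPM with siMESH1-7002. ITGB2, a subunit of the integrins that bind ICAM1, fell from 15.5 ± 1.56 to 2.34 ± 1.37 CPM and from 16 ± 0.801 to 12.1 ± 0.695 CPM.

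Of the other ligands and effectors, 7 of 20 were higher and 8 lower with siMESH1-CDS, beside 74.1% of all genes called. With siMESH1-7002, 11 of 18 were higher and 4 lower, beside 53.3% (26.6% higher, 26.7% lower). CXCL5, another neutrophil chemokine, rose by 1.32 (SE 0.196, edgeR adjusted p = 0.00175) with siMESH1-CDS and by 1.33 (SE 0.0719, edgeR adjusted p = 1.31e-10) with siMESH1-7002 on the log2 scale. IL18, an IL-1 family cytokine, rose from 16.3 ± 1.83 to 138 ± 34.3 CPM and from 15.8 ± 2.07 to 24 ± 1.42 CPM. CSF2, which encodes GM-CSF, went from 272, 76 and 232 reads to 13, 2 and 9 reads in experiment 1. In experiment 2 it went from 24, 13 and 14 reads to 6, 8 and 5 reads. In both experiments CSF2 passed the filter on low counts only through the siNT libraries, so its calls carry no weight in the counts. IRF1 fell from 64.2 ± 4.11 to 44.6 ± 0.872 CPM with siMESH1-7002. It held 78.2 ± 2.26 and 27.6 ± 21.2 CPM in experiment 1 (edgeR adjusted p = 0.0579). It was called lower there in 7 of 16 alternative fits. These include DESeq2 (-1.57, adjusted p = 0.00838) and a lane term (-1.19, edgeR adjusted p = 0.00623).

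AP-1 and C/EBP factors bind beside NF-kB at many of these promoters. Of 11 tested, 3 were higher and 4 lower with siMESH1-CDS, beside 74.1% of all genes called. With siMESH1-7002, 6 were higher and 1 lower, beside 53.3% (26.6% higher, 26.7% lower). ATF3 rose from 28.1 ± 3.01 to 65.4 ± 14.9 CPM and from 9.05 ± 0.906 to 12.7 ± 0.351 CPM. JUNB and CEBPB rose with siMESH1-7002, by 0.60 (SE 0.0549) and 0.67 (SE 0.0617), and fell with siMESH1-CDS, by 2.72 (SE 0.571) and 0.87 (SE 0.219), on the log2 scale. The CEBPB call with siMESH1-CDS did not pass without replicate 1 or 3 of siNT (edgeR adjusted p = 0.0520 and 0.0570) or with a lane term (edgeR adjusted p = 0.0608). With the centred and uncentred GC offset the siMESH1-CDS values were 0.41 and 1.06 for JUNB and 2.77 and 3.54 for CEBPB. FOSL1 fell from 36.3 ± 1.94 to 24.6 ± 1.25 CPM with siMESH1-7002. It held 131 ± 18.2 and 28.2 ± 31.3 CPM in experiment 1 (edgeR adjusted p = 0.08). It was called lower there in 6 of 16 alternative fits. These include DESeq2 (-2.29, adjusted p = 0.00877) and a lane term (-2.03, edgeR adjusted p = 0.00278). Of 10 factors that act on AU-rich elements, 6 were higher and 3 lower with siMESH1-CDS. With siMESH1-7002, 3 were higher and 5 lower, beside the same shares of all genes. CNOT7, a deadenylase, rose from 168 ± 5.16 to 494 ± 117 CPM and from 85.3 ± 7.78 to 111 ± 3.50 CPM, and ELAVL1, the stabilizing protein HuR, fell from 115 ± 3.53 to 45.9 ± 3.38 CPM and from 108 ± 0.996 to 77.1 ± 1.34 CPM.

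The lists moved with the GC offset in experiment 1. The AP-1 and C/EBP list had 6 higher and 0 lower genes with the centred offset and 7 higher and 0 lower with the uncentred one. The other feedback genes had 5 higher and 5 lower, and 10 higher and 4 lower. Of all genes, 14.1% were higher and 45.2% lower with the centred offset, and 41% and 27.1% with the uncentred one. With the centred offset the siMESH1-CDS calls of REL, RELB, TAB2, BCL3, ZC3H12A, TRAF1, LIFR, CXCL5, JUNB and CNOT7 did not pass. With the uncentred one those of REL, RELB, BCL3 and ITGB2 did not pass, and ZC3H12A (0.77), TRAF1 (0.63), JUNB and CEBPB were called higher.

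**Figure D5:**
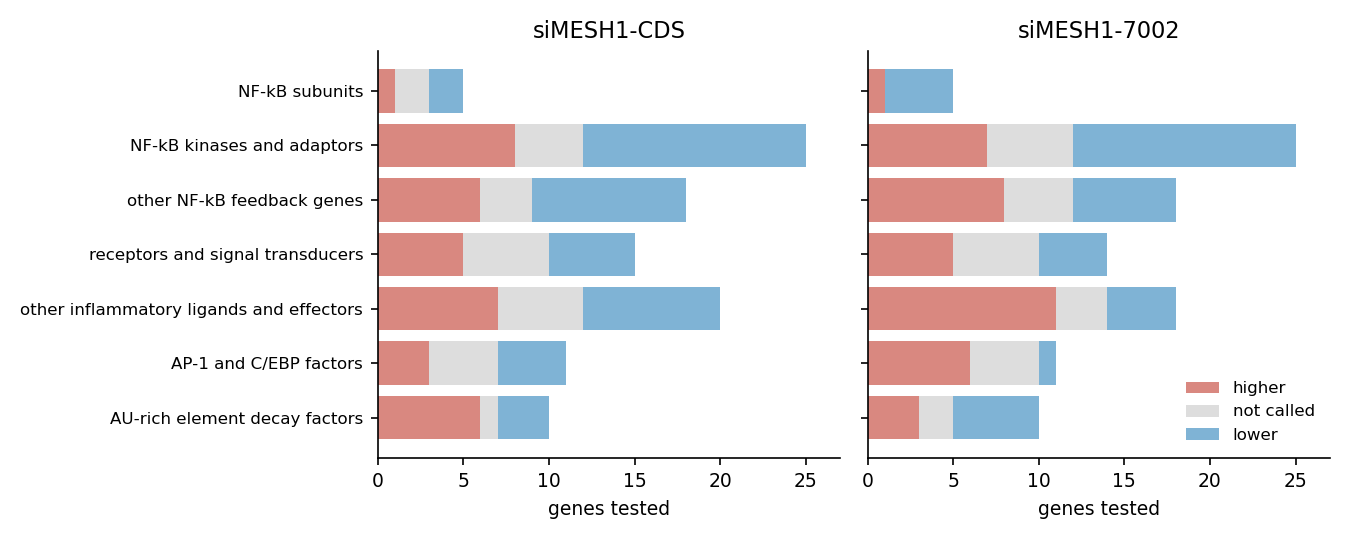
Number of genes tested in each pathway list that were higher, not called or lower with siMESH1-CDS (left) and siMESH1-7002 (right), at an edgeR adjusted p under 0.05. The other ligands and effectors had 11 higher and 4 lower genes with siMESH1-7002 and 7 and 8 with siMESH1-CDS. Of all genes tested, 74.1% were called with siMESH1-CDS and 53.3% with siMESH1-7002. The counts include genes that passed the filter on low counts only through siNT.

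Genes whose pattern over the 12 libraries was most like that of LIF, the secreted factor with the highest mean CPM over all libraries, were PSMB10, NFRKB and TMEM55B (Pearson's r of 0.999 each, on log2 CPM centred on the siNT mean of each experiment, among 12276 genes). Those most like TNFAIP3 were ZSWIM6, TBRG1 and DOCK1 (r = 0.998 each). Among the 10 genes, ICAM1 was the one most like LIF (r = 0.956), and TNFAIP3 ran opposite to LIF (r = -0.924). These values describe 12 libraries in which the 3 siMESH1-CDS libraries lie far from the rest and share the GC trend.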

How the data were processed

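Poly(A) RNA of RCC4 cells was sequenced from stranded libraries, and 12 libraries were used here. Each deposited file gives, for 1 library, the number of reads counted in every gene, unnormalized counts which the authors made with HISAT2 and HTSeq on hg19, per the labels (FastQC and DESeq2 are named too; versions not given in the sources used here). The authors' DESeq2 result tables hold their fold changes and p-values and were not used. Summary rows without a gene name entered neither library sizes nor tests; reads outside genes were 10.0% to 20.8% of reads.

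The quasi-likelihood test of edgeR 4.0.16 (R 4.3.3; filterByExpr, TMM) was run on the counts within each experiment, and over 12 libraries for the difference between the 2 changes. The fit over 12 libraries had its own filter, scaling and dispersion, so its differences depart from those of the separately fitted changes. Benjamini-Hochberg adjustment ran over the whole table, with a threshold of 0.05. CPM are TMM-scaled within an experiment. A count of 0 allows up to 3 reads. The SE is the absolute log2 fold change over the square root of edgeR's F statistic. Intervals of log2 fold changes are 1.96 SE to each side. They are nominally 95% and too narrow for 3 libraries against 3. The statistics were first run on simulated counts with few changed genes and no GC trend. That setting is unlike experiment 1, so it does not show how the test behaves there. Alternatives were DESeq2 1.42.0, library size, other filters, a minimum fold change of 1.4, a lane term, a replicate block, a model of 4 groups, leaving out each library, and a GC offset from a lowess smooth (span 0.3). Whether that offset is centred within a library was not laid down in the plan; the centred form was run first, and the uncentred form was added after its results were seen.

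The genes and lists were chosen with earlier results of these data known. Other genes were named by rule: in each list, the called gene with the largest rise and with the largest fall in each experiment at a mean of at least 1 CPM, and the 3 genes most correlated with LIF and with TNFAIP3. Positions, GC content (94.5% of symbols) and 3′UTRs came from GENCODE 29 (GRCh38), which is not the build of the files, and promoters from RefSeq.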

Additional observations from a re-analysis of the deposited data

Results flagged for a closer look

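The changes with the 2 MESH1 siRNAs differed by edgeR's test over 12 libraries for 4 of the 9 genes with a test and for the target. Differences of IL6, CCL2, ICAM1 and NFKBIA passed only under some alternatives. As siMESH1-CDS minus siMESH1-7002 on the log2 scale, the difference was -2.73 for LIF, -1.47 for CXCL1, -1.06 for CXCL2, 1.31 for TNFAIP3 and -2.47 for HDDC3. In experiment 1 HDDC3 held 5, 0 and 11 reads with siMESH1-CDS and passed the filter on low counts only through the siNT libraries. The size of its difference rests on counts near 0, so it carries no weight here. The median difference over all 14154 genes was -0.24, and 69.7% of genes were called. The siRNA, its target site, the experiment and its lanes changed together and cannot be told apart. With the uncentred GC offset the differences of LIF, CXCL1, CXCL2 and TNFAIP3 still passed, and that of HDDC3 did not (-0.46, edgeR adjusted p = 0.376).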

How the results depend on the processing

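Over the alternatives run for the 10 genes, 421 of 463 values stayed on their side of the threshold with no called value changing sign, and 407 of these kept their sign too. Calls of TNFAIP3, LIF and CCL2 with siMESH1-CDS, and of IL1B, CXCL1 and CCL2 with siMESH1-7002, passed under every alternative run. The number of the 10 genes called with siMESH1-CDS was 4, and 7 with each form of GC offset. Leaving out single libraries gave 4 to 6 with siMESH1-CDS and 6 to 7 with siMESH1-7002. In the counts with siMESH1-7002 the call of CXCL3 carries no weight. All genes called were 9926 with siMESH1-CDS (8200 to 11097 without single libraries) and 7235 with siMESH1-7002 (6264 to 8372). For siMESH1-7002 a minimum fold change of 1.4, which drops smaller changes by definition, called 2413, and a model of 4 groups called 2582. The fitted variation between libraries beyond counting error was 0.196 over 12 libraries and 0.049 within experiment 2. Its part in the count with 4 groups was not tested. With a model of 4 groups LIF, NFKBIA, REL, RELB, SHARPIN, IRAK2, TRAF2, TAX1BP1, BCL3, ZC3H12A, LIFR, ITGB2, CSF2, IRF1, ATF3, JUNB, FOSL1 and CNOT7 were no longer called with siMESH1-7002 (edgeR adjusted p from 0.0719 to 0.850). Without replicate 3 of siMESH1-CDS the log2 fold changes with siMESH1-CDS were -4.51 for RELB, -5.64 for BCL3, -8.0 for SHARPIN, -7.21 for TRAF2, -3.34 for ITGB2 and -6.66 for HDDC3; without replicate 2 they were -2.47 for RELB and -4.93 for HDDC3, and without replicate 1 -4.66 for CSF2. The difference between the siRNAs was -3.35 for LIF and -3.47 for HDDC3 without replicate 3, and -1.84 for HDDC3 without replicate 2. These values of HDDC3 rest on counts near 0 with siMESH1-CDS. Among values called in either fit, directions that reversed with siMESH1-CDS under the centred GC offset were those of IL6 (-0.96), REL (-0.41), ZC3H12A (0.055), CXCL5 (-0.21), JUNB (0.41), CEBPB (2.77) and CNOT7 (-0.030). Under the uncentred one they were ICAM1 (0.70, and 0.69 for its difference between the siRNAs), RELB (0.52), BCL3 (0.18), ZC3H12A (0.77), TRAF1 (0.63), JUNB (1.06) and CEBPB (3.54), and with siMESH1-7002 ICAM1 (0.082). Among values called in neither fit, signs changed for ICAM1 (0.051) with the centred offset, for IL6 (-0.29), FOSL1 (0.20), IRAK2 (0.10) and IL1R2 (0.11) with the uncentred one, for IL6 (-0.17) and NFKBIA (-0.044) by library size, and for IL6 with at least 10 counts in every library (-0.095) and with 4 groups (-0.066), all with siMESH1-CDS; with siMESH1-7002 it was ICAM1 (0.012, centred). In the difference they were CCL2 with both offsets and CXCL3 with DESeq2 and without any of 4 libraries. The cause was not tested. The median change of all genes with siMESH1-CDS was -0.05, and it was -0.31 by library size, -0.16 without a filter, -0.27 with 4 groups, -0.51 with the centred and 0.17 with the uncentred GC offset. The share of calls that were higher was 49.8% there, 23.7% with the centred and 60.2% with the uncentred offset; for siMESH1-7002 it was 49.9%, 62.3% with the uncentred offset and 40.0% with the minimum fold change. In the difference fit the median was -0.24, -0.71 centred and 0.06 uncentred. Reads of CXCL2 and CXCL3 in experiment 2 limit what can be said of them.

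Replicate numbers gave no clear pairing of the libraries. Same-numbered siNT and siMESH1 libraries correlated at -0.05, 0.22 and 0.13 in experiment 1 and at -0.06, 0.04 and -0.08 in experiment 2 (deviations from group means, across genes). Pairs of unlike number ran from -0.26 to 0.17 in experiment 1. With 3 libraries per group these values cannot exclude a pairing. With the replicate block, 9273 genes were called with siMESH1-CDS, 6972 with siMESH1-7002 and 9385 in the difference. Of the 10 genes 5 and 7 were called, with ICAM1 (-1.45, edgeR adjusted p = 0.0409) the added one. The 7 include CXCL3, whose call with siMESH1-7002 carries no weight.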
